A study of Homo sapiens with 6 samples.

Results

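The 10 annexin and S100 genes described here were ANXA1, ANXA2, ANXA4, ANXA5, ANXA6, ANXA7, ANXA11, S100A4, S100A6 and S100A10, chosen by symbol because their proteins are common in vesicles, out of 68201 genes in the count table. Their RNA was compared between extracellular vesicles (EVs), tested in 3 libraries, and whole cells (WC), also in 3 libraries, of K562, a line grown from a human chronic myeloid leukaemia. All cells were of WT genotype and untreated. EVs were collected from medium with vesicle-depleted serum and purified by size exclusion chromatography, the cells came from the same cultures, and polyadenylated RNA of both was read as PCR-amplified cDNA on nanopore flow cells. The comparison asks whether these mRNAs were represented in EVs as in the cells that released them.

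Annexins are cytosolic proteins that bind acidic phospholipids when calcium rises, through a core of repeated helical domains, and they take part in membrane repair, fusion and vesicle traffic. S100 proteins are small calcium sensors built from a pair of EF-hand motifs, and several work by binding an annexin, as S100A10 does with ANXA2. Both families are regularly found as proteins of vesicles. The values below are of their mRNAs, and no protein was measured.

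The EV libraries held 560157 to 881338 counts over all genes and the WC libraries 2480560 to 3178211, with 12891 to 14263 genes counted in an EV library and 21997 to 23874 in a WC library. Of 15 erythroid and myeloid markers of K562, 14 had the reads to be tested, of which 8 rose and 2 fell in EVs. The shares over all genes tested were 22.8% that rose and 21.4% that fell. Of 22 markers of other cells, 11 had any read. Their summed level was 59.5 to 109 CPM in EV libraries and 139 to 183 CPM in WC libraries, most of it from CD3D, EPCAM and ITGA2B, while MPO, ELANE, PF4, PPBP, ALB and KRT5 had no read in any library. AZU1, a granulocyte marker like MPO and ELANE, had 6, 8 and 6 reads in WC libraries and 0 in each EV library. CD3D, EPCAM and ITGA2B were the 3 tested, of which EPCAM and ITGA2B fell in EVs and none rose. Mean CPM in EVs and WC were 39.4 and 71.8 for EPCAM and 7.55 and 51.4 for ITGA2B. CD3D went the other way, at 37.7 in EVs and 25.7 in WC, and did not pass (adjusted p = 0.14 by edgeR). The part of other cells in the results was not tested.

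Counts were compared in edgeR by its quasi-likelihood test, and p-values were adjusted by Benjamini and Hochberg's method over the 8716 genes that passed its filter on low counts. A gene rose or fell in EVs where the adjusted p was under 0.05, and it was WC-enriched where the log2 fold change, EV over WC, was -2 or below with an adjusted p of at most 0.01. CPM are counts scaled to a common library size with TMM, which levels libraries through the bulk of their genes. Of the 10 members 8 passed the filter, and ANXA6 and S100A10 did not. Among these 8, none rose and S100A4 fell. Over all genes tested 22.8% rose and 21.4% fell, and of the protein-coding genes 22.2% fell. The median log2 fold change of the 8 was -0.14, against -0.13 over all genes tested and -0.24 over protein-coding genes. EVs and cells are bulk samples, so fewer vesicles or cells that hold an mRNA and less of it in each cannot be told apart.

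**Figure D1:**
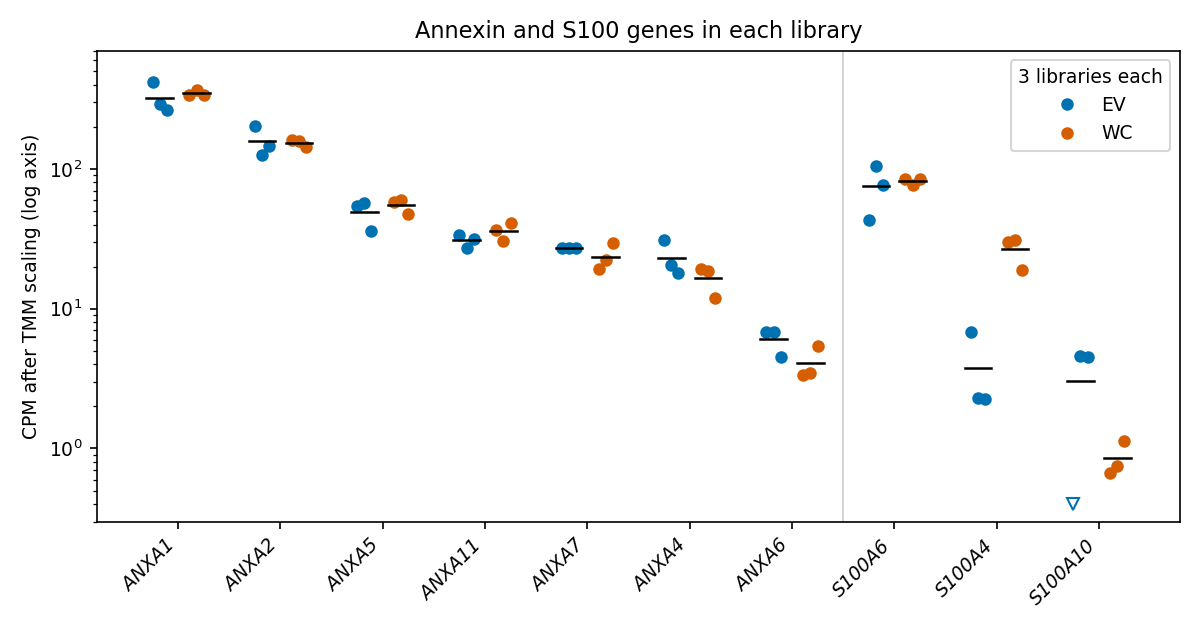
CPM of the 10 genes in each library (log axis), EV left and WC right for each gene, with points for libraries, bars for the mean of 3 and an open triangle at the foot for an EV library with no read. The EV and WC points of S100A4 are apart, at 2.25 to 6.76 CPM in EVs and 19.0 to 30.9 CPM in WC, and those of the other genes overlap.

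S100A4, a small protein that binds non-muscle myosin and is named for its link with metastasis, was the member that differed. It had 5, 1 and 1 reads in the EV libraries and 90, 124 and 67 reads in the WC libraries, which is 6.76, 2.28 and 2.25 CPM in EVs and 30.2, 30.9 and 19.0 CPM in WC. Every EV library was below every WC library, as it was for 29.4% of the genes tested. S100A4 fell by 2.63 on the log2 scale (SE 0.47, adjusted p = 5.2e-05 by edgeR), and it was WC-enriched, as were 5.93% of the genes tested. Only 7 reads stand behind the EV level. From these reads alone the ratio of EV to WC was 0.162, with a 95% exact interval of 0.0644 to 0.338 that covers counting error only.

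S100A6, or calcyclin, lies near S100A4 on chromosome 1, with 7368 bases between these members. In hg38 S100A4 is at chr1:153543613-153550136 and S100A6 at chr1:153534599-153536244, both on the minus strand. S100A6 had 43.3, 105 and 76.6 CPM in EV libraries and 84.3, 76.9 and 84.1 CPM in WC libraries. The EV values lay on both sides of the WC values, with replicate 1 the lowest. Its log2 fold change of -0.20 (SE 0.23) did not pass (adjusted p = 0.50, the same test). Over the fits that left out 1 library the value ran from -0.53 without EV replicate 2 (adjusted p = 0.0998) to 0.10 without EV replicate 1 (adjusted p = 0.73 by edgeR).

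Within each library, S100A4 had 0.156, 0.0217 and 0.0294 reads per read of S100A6 in EVs, and 0.359, 0.401 and 0.226 in WC. This ratio does not depend on scaling between libraries. It was taken up after the values of both genes had been seen, so no test is given.

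S100A10 is an S100 protein that no longer binds calcium and that joins ANXA2 in a complex of both at the plasma membrane. It lies 1540739 bases from S100A6 on the same chromosome (chr1:151982915-151993859, minus strand). It had 0, 2 and 2 reads in EVs and 2, 3 and 4 reads in WC, too few for the filter. The ratio of EV to WC from these reads was 2.88, and its 95% exact interval of 0.649 to 10.3 covered higher and lower levels in EVs. No difference was detected at this depth.

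Set against ANXA2 in the same library, there were 0, 3.64 and 3.08 reads of S100A10 per 100 reads of ANXA2 in EVs and 0.414, 0.472 and 0.795 in WC. The EV libraries thus included both the lowest and the highest values. The mean log2 ratio was -5.81 ± 2.11 in EVs and -7.30 ± 0.43 in WC (SD, n = 3 each, with 0.5 added to each count). The difference of 1.50 had p = 0.40 in an exact two-sided permutation test over libraries, in which 3 against 3 cannot go below 0.1.

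ANXA1, which mediates part of the anti-inflammatory action of glucocorticoids, had the most reads of the 10 genes (chr9:73151865-73170393, plus strand). It had 415, 289 and 263 CPM in EVs and 337, 369 and 335 CPM in WC. EV replicate 1 was above all WC libraries and the other EV libraries were below them. On the log2 scale EVs differed from WC by -0.11 (SE 0.17, adjusted p = 0.63 by edgeR). Without EV replicate 1 it was -0.38 and passed (adjusted p = 0.047, the same test), in a fit where 17.3% of genes fell.

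ANXA2 (chr15:60347134-60402883, minus strand), which binds plasminogen and actin as well as membranes, was the next by reads. It had 203, 125 and 146 CPM in EVs and 162, 158 and 142 CPM in WC. EV replicate 1 was again the highest of the 6 libraries and the groups overlapped. The log2 fold change was 0.04 (with SE 0.18, adjusted p = 0.86, the same test).

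ANXA5 (chr4:121667946-121696995, minus strand), widely used as a probe for exposed phosphatidylserine, had 54.1, 57.0 and 36.0 CPM in EVs and 58.4, 59.97 and 47.3 CPM in WC. Its EV values reached below the WC values and overlapped with them, with a log2 fold change of -0.17 (with SE 0.22, adjusted p = 0.56 by edgeR). ANXA11 (chr10:80150889-80205572, minus strand), which tethers RNA granules to lysosomes in neurons, had 33.8, 27.3 and 31.5 CPM in EVs and 36.3, 30.4 and 41.04 CPM in WC. The groups overlapped, and its log2 fold change was -0.21 (SE 0.25, adjusted p = 0.52 by edgeR).

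ANXA7 (chr10:73375101-73414076, minus strand), first described as a membrane fusion factor of secretory granules, had 27.1, 27.3 and 27.0 CPM in EVs and 19.1, 22.1 and 29.4 CPM in WC. The EV values rest on 20, 12 and 12 reads, so their closeness is not read as a trait of the gene. The WC range enclosed the EV values, and the log2 fold change was 0.18 (with SE 0.28, adjusted p = 0.62 by edgeR). In the annotation 105 exon bases of ANXA7 also belong to a gene on the opposite strand, which had no read in EVs and 3 to 7 reads in a WC library. S100A6 shares 37 exon bases with a gene on the other strand that had no read in any library.

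ANXA4 (chr2:69644425-69827112, plus strand), an annexin of secretory and epithelial membranes, had the largest positive fold change of the members tested. It had 31.1, 20.5 and 18.0 CPM in EVs and 19.1, 18.7 and 11.9 CPM in WC. The groups overlapped through EV replicate 3, and the log2 fold change of 0.54 (SE 0.31) did not pass (adjusted p = 0.16 by edgeR). ANXA6 (chr5:151100706-151157815, minus strand), which carries the annexin core in duplicate, had 5, 3 and 2 reads in EVs and 10, 14 and 19 reads in WC and was not tested. Its ratio of EV to WC was 1.51, with a 95% exact interval of 0.676 to 3.05.

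Summed over the 7 annexins, the level was 617 ± 134 CPM in EVs and 637 ± 24.6 CPM in WC (SD, n = 3 each). The 3 S100 genes summed to 81.7 ± 30.8 CPM in EVs and 109 ± 5.56 CPM in WC. Both sums spread more among EV libraries than among WC libraries. EV replicate 1 had the highest annexin sum and the lowest S100 sum, at 771 and 50.04 CPM, and is also the EV library with the most counts.

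The calls of ANXA1, ANXA2, ANXA5, ANXA11 and S100A6 depended on how libraries were scaled, and those of S100A4, ANXA4 and ANXA7 did not. With scaling by total count alone, the median log2 fold change of all genes was -0.78, 51.6% of the genes tested fell, and so did 6 of the 8 members, which were ANXA1, ANXA2, ANXA5, ANXA11, S100A4 and S100A6. The median of the members was then -0.79, so that relative to all genes they lay where they lay with TMM scaling. ANXA4 was at -0.10 and ANXA7 at -0.48 without passing. S100A4 fell under all 14 alternatives tried, with log2 fold changes of -3.57 to -2.41.

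**Figure D2:**
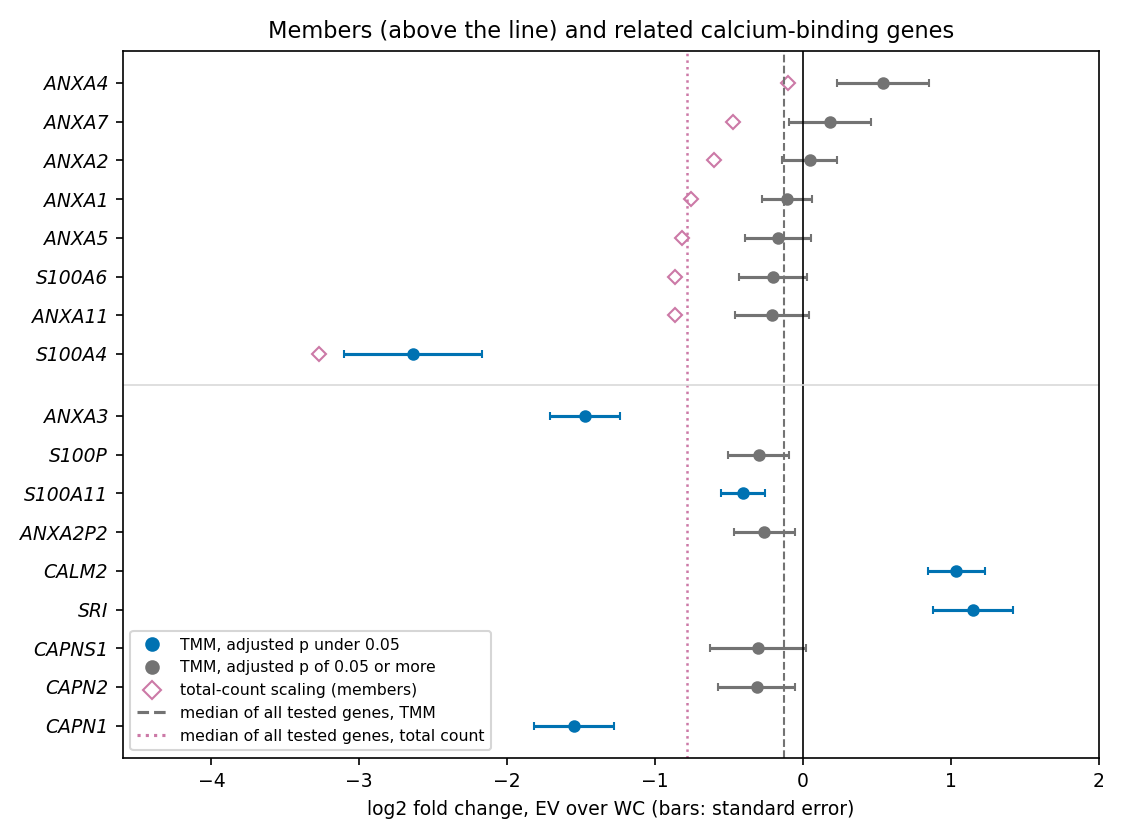
Log2 fold change, EV over WC, with standard errors, for the 8 members tested (above the grey line) and for related calcium-binding genes (below it). Diamonds give the members with scaling by total count, and the broken lines give the medians of all genes tested, -0.13 with TMM and -0.78 with total counts. S100A4 lies at -2.63, and the other members lie between -0.21 and 0.54.

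Levels of different genes were compared per kilobase of the main annotated transcript (CPM per kb). The library preparation had no fragmentation step, so counts need not grow with transcript length, and division by length then raises short genes. The RNA itself need not be whole. The paper reports that most reads of EVs and WC did not span their annotated transcript, and that EV alignments were shorter. The effect of this on the order was not tested. By CPM alone ANXA2 was above S100A6, at 158 against 74.9 in EVs and 154 against 81.7 in WC. Per kb ANXA1 was first in EVs at 230 ± 57.9, then S100A6 at 173 ± 71.0 and ANXA2 at 102 ± 25.8 (SD, n = 3). The ranges of neighbours in this order overlapped. ANXA5 followed at 29.9 ± 6.93, apart from its neighbours on both sides. Below it came ANXA7 (11.1), ANXA4 (8.76), S100A4 (7.34), ANXA11 (4.59), S100A10 (4.50) and ANXA6 (2.09), each overlapping with the next. In WC the order began with ANXA1 at 248 ± 13.5, S100A6 at 188 ± 9.71 and ANXA2 at 99.3 ± 6.76, with no overlap among them. S100A4 was next in WC, at 52.0 ± 13.04, above ANXA5 at 33.7 ± 4.23. ANXA7 (9.65), ANXA4 (6.25), ANXA11 (5.33), ANXA6 (1.41) and S100A10 (1.27) closed the order in WC, where the ranges overlapped between ANXA4 and ANXA11 and between ANXA6 and S100A10. Per kb S100A4 therefore ranked 7 in EVs and 4 in WC. By CPM alone it stood lower, below ANXA6 in EVs (3.76 against 6.03) and below ANXA11 in WC (26.7 against 35.9). The level of ANXA11 per kb is set low by its annotated transcript of 6734 bases, since its longest isoform model had 2550.

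The 5 genes whose pattern over the 6 libraries was nearest to that of ANXA1 were GDI2, DAZAP2, PSMC2, YIPF6 and EEF1A1P12. Their distances, taken over log2 CPM after each gene's mean was removed, were 0.134 to 0.184, with Pearson's r of 0.94 to 0.97 over 6 libraries. All points share the same libraries and their depths, so these values are a description.

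Reads of ANXA2 are not fully separable from those of its processed copies, which lack introns. The coding sequence of ANXA2 has 1017 bases and aligned to ANXA2P2 on chromosome 9 with 98.4% identity over 1017 bases, 16 mismatches and no gap, to ANXA2P1 on chromosome 4 with 93.6% over 928 bases and to ANXA2P3 on chromosome 10 with 91.4% over 1016 bases. The window of 60 bases printed here was picked as the one with the most mismatches, 5, among gap-free windows within an exon. It therefore shows where gene and copy are easiest to tell apart. The bases that differ are in capitals, and both are from hg38, ANXA2 at chr15:60364452-60364511 (minus strand, coding exon) and ANXA2P2 at chr9:33624434-33624493 (plus strand).
ANXA2: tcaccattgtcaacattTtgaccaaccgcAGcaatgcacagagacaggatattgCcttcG
ANXA2P2: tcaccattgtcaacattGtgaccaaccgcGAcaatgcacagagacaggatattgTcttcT

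ANXA2P2 had 95, 31 and 37 reads in EVs and 383, 478 and 344 reads in WC. Its parent had more in every library, with 150, 55 and 65 reads in EVs and 483, 636 and 503 in WC. In CPM ANXA2P2 had 128, 70.6 and 83.3 in EVs and 129, 119 and 97.4 in WC. The log2 fold change of ANXA2P2, -0.26 (SE 0.21), did not pass (adjusted p = 0.32 by edgeR). Without EV replicate 1 it was -0.63 and passed (adjusted p = 0.017), and so did the -0.90 found with scaling by total count (adjusted p = 0.0012 by edgeR). ANXA2 itself held 60.5%, 62.5% and 63.1% of the counts of the gene and its copies in EVs and 55.3%, 56.6% and 58.6% in WC. Every EV library was above every WC library. The difference in the mean log2 ratio of ANXA2 to its copies was 0.30, with p = 0.10 in an exact two-sided permutation test over libraries, the smallest p that 3 against 3 can give. Of 14 annotated pseudogenes of both families 7 had a read, and ANXA2P2 alone was tested. How reads that fit gene and copy alike were assigned is not given in the sources used here. With reads of gene and copies pooled in place of ANXA2, the S100A10 ratio differed by 1.63 (p = 0.40, the same exact test).

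**Figure D3:**
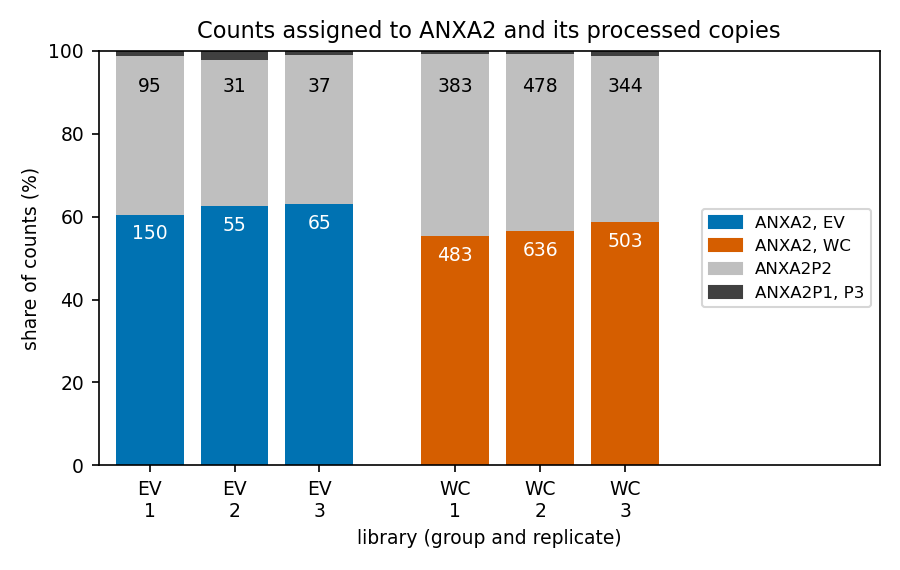
Share of counts in each library, in percent, assigned to ANXA2 (coloured), ANXA2P2 (light grey) and the other copies (dark grey), with read numbers printed in the bars, EV libraries left and WC libraries right. The ANXA2 share is 60.5% to 63.1% in EVs and 55.3% to 58.6% in WC.

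Few other genes of both families had enough reads to be tested. Of 6 other annexins 4 had a read and ANXA3 alone was tested. ANXA3, first described as an inhibitor of phospholipase, had 24.3, 22.8 and 29.3 CPM in EVs and 66.2, 73.2 and 69.3 CPM in WC, with no overlap. It fell by 1.47 on the log2 scale (SE 0.24, adjusted p = 1.5e-05 by edgeR), which was the largest difference of the 7 annexins tested.

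Of 18 other S100 genes 11 had a read, 2 were tested, none rose and 1 fell. S100A11, which binds ANXA1, had 360, 376 and 432 CPM in EVs and 549, 522 and 454 CPM in WC, a log2 fold change of -0.40 (with SE 0.15, adjusted p = 0.031 by edgeR). That call was lost with the replicate pairs as a block (adjusted p = 0.058) and without EV replicate 2 (adjusted p = 0.11 by edgeR). S100P, an S100 protein first found in placenta, had 74.4, 150 and 115 CPM in EVs and 132, 137 and 134 CPM in WC and did not pass (log2 fold change -0.30, adjusted p = 0.24 by edgeR), though with scaling by total count it fell, at -0.96 (adjusted p = 0.00040). S100A13, which was named after its values were seen, had 7, 0 and 9 reads in EVs and 3, 3 and 4 in WC, and did not pass the filter.

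Among other calcium-binding genes, CALM2, which encodes the calcium sensor calmodulin, rose in EVs by 1.04 on the log2 scale (SE 0.19, adjusted p = 9.7e-05 by edgeR). It had 97.0 ± 10.8 CPM in EVs and 46.4 ± 3.87 CPM in WC (SD, n = 3 each). CALM3 was not tested. Of 7 penta-EF-hand genes 4 were tested, of which SRI rose and CAPN1 fell. SRI, or sorcin, a partner of ANXA7, had 41.3 ± 4.28 CPM in EVs and 18.3 ± 5.52 CPM in WC. CAPN1, the large subunit of a calpain protease, had 16.1 ± 2.72 CPM in EVs and 48.1 ± 0.88 CPM in WC. CAPN2 and CAPNS1 had log2 fold changes of -0.31 and -0.31 and did not pass. With scaling by total count CALM2 was at 0.38 and SRI at 0.50 on the log2 scale, and neither passed, while CAPN2 at -0.97 and CAPNS1 at -0.96 passed as lower in EVs (adjusted p = 0.0044 and 0.014 by edgeR).

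Of 13 genes whose proteins bind a member, 9 were tested, with 3 lower in EVs by the test and none higher, beside 21.4% lower and 22.8% higher over all genes tested. Their median log2 fold change was -0.44, against -0.13 over all genes tested and -0.24 over protein-coding genes. Named by reads, CACYBP, which binds S100A6, had 241 ± 7.30 CPM in EVs and 188 ± 18.2 CPM in WC and did not pass (log2 fold change 0.34, adjusted p = 0.088 by edgeR). CTSB, a cathepsin whose proform is bound by the complex of ANXA2 and S100A10, fell to 48.6 ± 11.8 CPM in EVs, against 214 ± 18.6 CPM in WC (a log2 fold change of -2.12 with SE 0.21 and adjusted p = 6.2e-09 by edgeR). PDCD6IP, or ALIX, an adaptor of vesicle budding, had 64.5 ± 11.7 CPM in EVs and 88.0 ± 4.88 CPM in WC and did not pass (adjusted p = 0.078 by edgeR). It did pass as lower in EVs in 4 of 14 alternatives, namely with scaling by total count (log2 fold change -1.09, adjusted p = 0.00016), without a filter (-0.64, adjusted p = 0.025), with WC libraries thinned to the EV depth (-0.56, adjusted p = 0.040) and without EV replicate 1 (-0.63, adjusted p = 0.025, all by edgeR). PLSCR1, a phospholipid scramblase, fell to 30.1 ± 9.04 CPM in EVs, against 70.2 ± 8.43 CPM in WC (log2 fold change -1.17, adjusted p = 0.00031 by edgeR). AHNAK, a scaffold that S100A10 binds, was the other gene of the list that fell, at -1.26 on the log2 scale, and it was named after its value was seen.

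The authors' isoform models form a single set for all libraries and are labelled as productive, with an early stop codon, or with no start codon. The deposited levels are the authors' means of normalised reads over EV and WC libraries together, so they say nothing of EV against WC. The members had 96 models, of which 51 were productive, 34 had an early stop and 11 had no start codon. An early stop was thus in 35.4% of the models of these genes, against 23.7% of 53464 models of protein-coding genes. Models of 1 gene share exons and are not independent. ANXA2 had 32 models, ANXA1 19, ANXA7 15, ANXA5 8, ANXA11 6, ANXA4 5 and ANXA6 2. S100A4 and S100A6 had 4 each and S100A10 had 1, all of them productive and with 3 exons. Of 994 introns in the models, 984 began with GT and ended with AG, and the other 10 began with GC.

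Annexin models share an exon plan. The main transcripts of ANXA1, ANXA4, ANXA5 and ANXA11 all hold a run of exons of 95, 114, 91, 80, 57, 94, 96, 59 and 123 bases. ANXA2 has the same run with 60 in place of 57 bases. ANXA6 has the run and then a further copy with exons of 54 and 18 bases in place of 57, while ANXA7 keeps 95 and 114 bases and continues with an exon of 171. ANXA6 also had a model without the exon of 18 bases.

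Of 19 ANXA1 models 9 had a deposited level, 281 normalised reads in sum. The annotated transcript of 13 exons held 137.5, or 48.9% of this sum, and models with an early stop held 23.5%. The leading model with an early stop kept intron 2, at 47.5 normalised reads. Intron 2 has 93 bases and lies between coding exons at chr9:73158602-73158694 (hg38, plus strand). Read on in the frame of exon 2, it meets a stop codon at its base 25, shown in capitals, which is why it is printed.
ANXA1 intron 2: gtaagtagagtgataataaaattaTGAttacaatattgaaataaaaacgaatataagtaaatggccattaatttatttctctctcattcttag

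Of the ANXA1 models with a level, 5 left out a single exon. The model without exon 8 (57 bases, 32.2 normalised reads) and the model without exon 10 (96 bases, 12.4) lost a multiple of 3 bases and were labelled productive. The model without exon 4 (95 bases, 12.2) and the model without exon 6 (91 bases, 6.30) had an early stop, and the model without exon 2, which holds the start codon, was labelled as having none (8.81). Models with no level lacked other exons, and in those labelled productive several exons were missing at once. The exons 8 and 10 are shown as the coding pieces that a productive model may lack (chr9:73163476-73163532 and chr9:73166097-73166192, hg38, plus strand), with no base in capitals.
ANXA1 exon 8: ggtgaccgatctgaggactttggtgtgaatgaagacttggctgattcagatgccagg
ANXA1 exon 10: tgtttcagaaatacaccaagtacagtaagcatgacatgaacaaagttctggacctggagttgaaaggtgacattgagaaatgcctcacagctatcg

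The same positions recurred in ANXA5, where a productive model without exon 10, also of 96 bases, had 2.60 normalised reads and a model without exon 2, labelled as having no start codon, had 6.94. The annotated ANXA5 transcript held 22.7, or 70.4% of the sum for that gene.

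**Figure D4:**
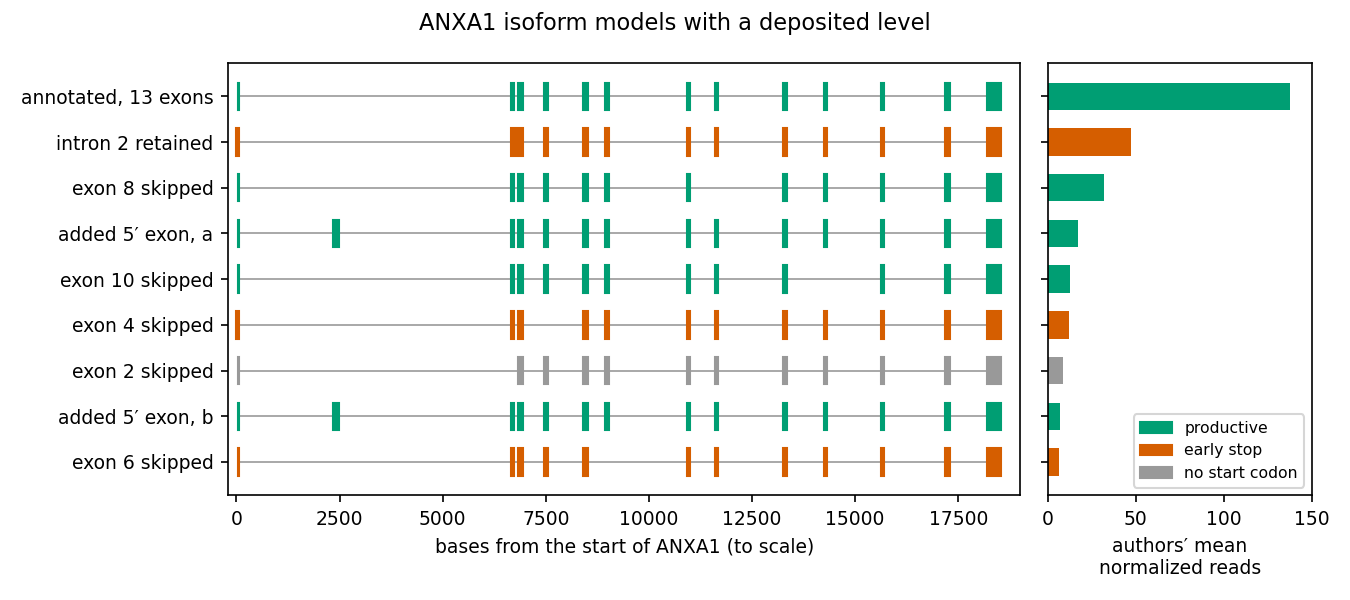
The 9 ANXA1 isoform models with a deposited level. Left, exons as blocks in bases from the start of the gene, to scale, and right, the authors' mean of normalised reads over all libraries, coloured by the label of the model. The annotated model has 137.5, the model that keeps intron 2 has 47.5 and the model without exon 8 has 32.2.

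In ANXA2 all 17 models with an early stop used a splice site shifted by at most 12 bases, and none of the 15 productive models did. No model of another member had such a shift. In 12 of the 17 models the shift lay at intron 7. The donor site was moved 4 bases into the intron, the acceptor site 5 bases into exon 8, or both, in 3, 2 and 7 models. Each of these changes moves the reading frame, and with both sites moved the net change was -1 base. Whether shifts this small were present in the RNA itself was not tested. The annotated and the shifted donor both read GT, and the annotated and the shifted acceptor both read AG. The bases between the annotated and the shifted site are in capitals, with 20 bases on each side of the annotated site (hg38, minus strand, chr15:60355899-60355938 for the donor and chr15:60354194-60354233 for the acceptor).
ANXA2 exon 7 and intron 7: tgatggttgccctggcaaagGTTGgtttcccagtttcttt
ANXA2 intron 7 and exon 8: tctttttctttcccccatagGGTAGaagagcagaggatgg

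A level was deposited for 4 ANXA2 models, 77.6 normalised reads in sum. The annotated transcript of 13 exons held 51.3, or 66.1%, and an annotated model with another first part held 12.2. The model with the shifted acceptor alone had 8.96 and contained an intron that GENCODE v44 lacks. The model with both sites shifted had 5.19, and all of its introns are in GENCODE v44. Together these models with an early stop held 18.2% of the ANXA2 sum.

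Of the other genes, ANXA11 had 3 models with a level, of which the annotated transcript of 16 exons held 48.2% of the sum. ANXA4 had 1 model with a level, a productive model of 3302 bases and 15 exons that no annotated transcript matched, at 7.61 normalised reads. ANXA7, S100A4 and S100A6 each had a level for 1 annotated transcript, at 15.3, 14.1 and 32.8. No model of ANXA6 or S100A10 had one.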

How the data were processed

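RNA of 3 EV and 3 WC samples of K562 was measured by nanopore PCR-cDNA sequencing. The deposited counts, which were tested here, are the authors' featureCounts output in long-read mode for GENCODE v41 genes, after alignment to hg38 (GRCh38) by minimap2. A strand setting is not given in the sources used here, so antisense reads may be included. The deposited signal values are the authors' counts divided by size factors, and for isoforms, whose models the authors built with FLAIR, a mean of normalised reads. The score that the authors' deposited isoform models carry bears on no result. The gene and isoform tables also hold the authors' DESeq2 fold changes and p-values, which were not used.

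Of 68247 lines 68201 genes were kept, since 46 IDs stood on 2 lines. GENCODE v44 gave names, positions and main transcripts for 61757 of them, with 99.95% of the counts. edgeR 4.0.16 in R 4.3.3 used TMM factors of 0.76 to 0.84 in EV and 1.20 to 1.31 in WC libraries, a robust fit and its expression filter. SE were taken from the fold change and F. The test was checked on simulated counts with a single dispersion of 0.0184 for all genes. Of genes changed by 1 on the log2 scale, 23 of the 45 kept by the filter were found. For a change of 2 it found 47 of 50, and it called 8 of 8274 unchanged genes. Smaller changes were not simulated. Sequences were read from hg38 with samtools 1.23.1 and copies aligned with blastn 2.17.0. Exact tests used scipy 1.17.1 in Python 3.11.15.

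Named genes were all members, in each list every gene tested if 6 or fewer and otherwise the 4 with the most reads, and the 5 genes nearest in pattern to the member with the most reads. Members and lists were chosen with earlier results of these data known, and some genes of the lists are not reported here. By the study's methods, same-number EV and WC libraries come from the same replicate culture and shared a flow cell. After removal of group means, same-number libraries correlated at 0.062, 0.024 and 0.004. Replicates were separate cultures. Alternatives were DESeq2 1.42.0, scaling by RLE or by total counts, omission of the filter, a filter at 5 reads on average, a block for replicates, thinning of WC libraries to 674116 counts, a fit that was not robust, leaving out each library and, for ratios within libraries, a pseudocount of 1 and ANXA2 with its copies.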

Additional observations from a re-analysis of the deposited data

How the results depend on the processing

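Across all genes 1987 rose, 1864 fell, 395 were EV-enriched and 517 WC-enriched. With total-count scaling these counts were 1066, 4494, 213 and 1192, and 6 members fell in place of 1, with ANXA2 turning to -0.60 on the log2 scale (adjusted p = 0.0079, edgeR). WC libraries thinned to the EV depth gave 1228 genes that fell, 222 EV-enriched and 257 WC-enriched. WC-enriched genes numbered 328 with DESeq2 and 784 without a filter. Leaving out each library in turn gave 1497 to 2008 genes that rose, 1395 to 1868 that fell, 308 to 509 EV-enriched and 339 to 491 WC-enriched, with 0 members that rose and 1 to 2 that fell. The fewest WC-enriched genes came without WC replicate 3. No member rose in any fit, and S100A4 fell in each, with adjusted p from 1.1e-08 to 0.00063 over the 14 alternatives (edgeR or DESeq2).

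With the replicate pairs as a block 1890 genes rose, 1693 fell, 402 were EV-enriched and 433 WC-enriched, with 0 members that rose and 1 that fell. The block changed no call of a member, and of the related genes named it changed the call of S100A11 alone. In the blocked form the S100A10 to ANXA2 ratio differed by 1.50 (p = 0.50) and the ratio of ANXA2 to its copies by 0.30 (p = 0.25, exact sign-flip tests over 3 pairs, which cannot go below 0.25). With a pseudocount of 1 these differences were 1.79 and 0.299. Without 1 library they ran from 0.830 to 2.71 and from 0.260 to 0.357. S100A10 passed neither filter, and without one its adjusted p was 0.52 (edgeR). ANXA6 passed the filter at 5 reads on average and the usual filter without any 1 of the EV replicates, with adjusted p of 0.40 to 0.70, and it had 0.73 without a filter (edgeR). Depth limits both, and S100A4 in EVs rests on 7 reads. No paired analysis was possible for isoforms because their deposited levels are means over all libraries.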
